A study of Mus musculus with 11 samples.

Results

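Described here are 10 genes that lie in 5 head-to-head pairs. In each pair 1 gene had higher nascent exon reads in mouse embryonic stem cell libraries labelled as treated with an siRNA against Zc3h4, and a partner gene on the opposite strand starts within 4 kb upstream of it. The risen genes are Stkld1, Iqch, 9330104G04Rik, Tcam1 and Gm11532, and their partners are Surf4, Aagab, Dact3, Smarcd2 and Scrn2 in that order. They are 10 of the 13088 genes whose exon reads the authors deposited, and all 10 passed the filter on low values, a mean of 10 or more over the 5 libraries. The risen genes were picked for their rise in these same libraries, so their own values are given as a description with no test. The partners were picked by position, although their reads come from the same libraries.

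Many mammalian promoters are transcribed both ways. Polymerase leaves in the direction of the gene and, from a nearby start, in the opposite direction, which gives short, unstable upstream antisense RNA (uaRNA). The Restrictor complex, built from the zinc finger protein ZC3H4 and the adaptor WDR82, is known to stop such unproductive transcription early. Where an annotated gene happens to lie downstream of the antisense direction, as in the 5 pairs, transcription away from the partner runs along the strand of that gene.

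The method was transient transcriptome sequencing (TT-seq), in which RNA made during a short pulse of 4-thiouridine (4sU) is captured and sequenced. All libraries came from wild-type F121-9 cells, a female hybrid line of the CAST and 129 strains, kept in serum-free medium with LIF and inhibitors of MEK and GSK3. The controls were 3 libraries of cells given 30 nM of a non-targeting siRNA (siNT, replicates 1, 2 and 3), and the others were 2 libraries labelled siZC3H4, also at 30 nM (replicates 2 and 3). Both groups had 500 µM 4sU for 20 minutes and were harvested 47 hours after transfection. The design text calls the replicates biological, but nothing names separate cultures, so the p-values measure only the spread between these libraries, part of which may be technical. The series also lists 3 DMSO and 3 dTAG samples, which are not analysed here.

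Within a library every deposited value is a whole number of reads scaled by a single depth factor (1 to 1.767 over the libraries). Exon reads before that scaling totalled 14840637 to 26548710 per library. The siRNA target did not fall in this readout. Zc3h4 itself had 3465, 3610 and 3363 exon reads with siNT against 7285 and 6718 in the libraries labelled siZC3H4, a rise of log2 1.01 ± 0.11 (SE, limma adjusted p = 0.00431). Nascent exon reads measure neither mature mRNA nor protein, so this does not settle the labels, and every direction below is drawn from libraries labelled siZC3H4. The stem cell label was met by the defining markers. The 8 pluripotency genes examined, Pou5f1 among them, summed to 89522 to 106425 reads with siNT and 75986 to 92314 in the libraries labelled siZC3H4. In the same order, 17 markers of 4 other cell types (6 of them measured) summed to 859 to 1183 and to 1299 to 1703. The 4 neural markers made up most of that, 749 to 1076 and 1207 to 1583, with a higher mean for each of the 4 and 0 of them past the limma threshold. The part of these marker differences in the results below was not tested.

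The starts of the pairs fall into a close and a distant set. By the gene table (mm10), the Iqch start lies 214 bases from the Aagab start on chromosome 9, the Stkld1 start 399 bases from the Surf4 start on chromosome 2, and the 9330104G04Rik start 520 bases from the Dact3 start on chromosome 7. On chromosome 11 the distances are 3615 bases from Smarcd2 to Tcam1 and 3848 bases from Scrn2 to Gm11532. RefSeq (GRCm38.p6, the same assembly as mm10) draws some starts closer. Its Tcam1 gene begins 22 bases from the Smarcd2 start, its Stkld1 and Surf4 genes overlap by 256 bases at their 5′ ends, and its Iqch and Aagab starts are 104 bases apart.

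**Figure D1:**
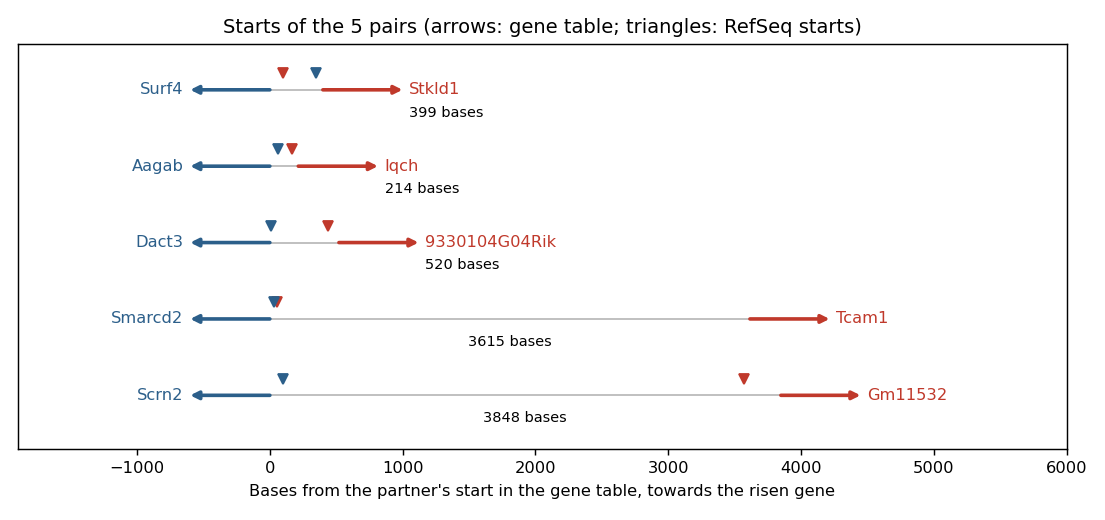
Distance in bases from the partner's start in the gene table (x axis, positive towards the risen gene) for the 5 pairs; arrows show the direction of transcription from each start in the gene table and triangles the outermost RefSeq starts. The Stkld1, Iqch and 9330104G04Rik starts lie within 520 bases of the partner, and the Tcam1 and Gm11532 starts lie 3615 and 3848 bases away, with the RefSeq start of Tcam1 next to Smarcd2.

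The stretches between starts are printed because they lie between, or next to, the starts the results turn on. The sequences are from RefSeq (GRCm38.p6), plus strand, with every CpG in capitals. The first is chr9:63602527-63602629, all 103 bases between the RefSeq starts of Iqch (to the left, minus strand) and Aagab (to the right). The second is chr7:16875067-16875316, the 250 bases before the Dact3 start, part of the interval it shares with 9330104G04Rik. The third is chr11:106276422-106276579, the 158 bases before the Tcam1 start of the gene table, which lie far from the Smarcd2 start.
Iqch-Aagab: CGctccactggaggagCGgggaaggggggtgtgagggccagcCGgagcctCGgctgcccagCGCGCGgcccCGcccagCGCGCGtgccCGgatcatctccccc
9330104G04Rik-Dact3: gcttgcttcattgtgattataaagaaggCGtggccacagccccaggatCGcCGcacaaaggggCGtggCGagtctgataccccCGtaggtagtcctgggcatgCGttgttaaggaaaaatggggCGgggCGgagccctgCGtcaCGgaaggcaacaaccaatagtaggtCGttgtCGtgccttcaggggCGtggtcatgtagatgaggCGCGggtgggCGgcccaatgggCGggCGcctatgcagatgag
Tcam1: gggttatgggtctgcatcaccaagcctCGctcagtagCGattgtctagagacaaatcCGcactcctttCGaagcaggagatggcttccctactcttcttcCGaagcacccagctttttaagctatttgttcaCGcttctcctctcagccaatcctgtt
The 103 bases between Iqch and Aagab hold 12 CpGs at 78.6% GC, the 250 bases before Dact3 hold 19 at 60.4% GC, and the 158 bases before Tcam1 hold 6 at 50.0% GC. The stretches differ in length and in place relative to a start, so these contents are not a like comparison. The full Tcam1 promoter windows hold 21 CpGs.

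Over the 300-base promoter windows of RefSeq (250 bases before to 50 after a start), 8 of the 10 genes matched. CpG dinucleotides numbered 41 in the Iqch window, 37 for Aagab, 33 for Surf4, 25 for Dact3, 21 for Tcam1 and 16 each for Stkld1 and 9330104G04Rik, against a median of 7 over 32851 windows. The window listed for Smarcd2 held 4, but it belongs to a start 5333 bases inside the gene and not to the one facing Tcam1. The Tcam1 windows belong to starts 92 and 142 bases from that of the gene table, not to the RefSeq start next to Smarcd2. Those of Stkld1, Surf4, Iqch and Aagab belong to starts 232, 86, 17 and 44 bases from the gene table's. None of these 4 is the outermost RefSeq start given above. The Iqch and Aagab windows overlap, as do those of 9330104G04Rik and Dact3, so their counts are not separate. The letters GTAAG, the core of a 5′ splice site, were in both Tcam1 windows, which share most of their bases (on each strand), and in none of the other 7 member windows, against 28.8% of all windows on either strand. The polyadenylation signal AATAAA was in 0 of the 9 member windows on either strand, against 19.6% of all windows. A match is a description of the letters in these windows only.

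Each of the 3 protein-coding risen genes had few reads with siNT. Stkld1, which encodes a kinase-like protein (ENSMUSG00000049897, chromosome 2, 26933824 to 26953496), had 22, 25.2 and 19.6 exon reads with siNT against 162 and 105 in siZC3H4 replicates 2 and 3. Its mean went from 22.3 ± 2.81 (SD, n = 3) to 134 ± 40.1 (SD, n = 2), 5.68-fold on the log2(value + 1) scale. Both libraries labelled siZC3H4 were far above every siNT library, and replicate 2 was the higher. These are pooled cultures, in which more cells transcribing a gene and more RNA per cell cannot be told apart.

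Iqch, a gene with an IQ motif needed for sperm development in mice (ENSMUSG00000037801, chromosome 9, 63421662 to 63602476), was the lowest member. It had 7, 16.5 and 12.8 reads with siNT against 62.8 and 64.1 in the libraries labelled siZC3H4 (log2 2.37 ± 0.40 SE). The siNT values rest on 41 reads in all before division (exact Poisson 95% interval 29.4 to 55.6, counting error only), and siNT replicate 1 contributed 7 of them. The libraries labelled siZC3H4 nearly coincided.

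Tcam1, a cell adhesion gene known from the testis (ENSMUSG00000020712, chromosome 11, 106276580 to 106288143), had 22, 20.9 and 36.7 reads with siNT. It had 145 and 171 in the libraries labelled siZC3H4, 5.95-fold (log2 2.57 ± 0.31 SE). Here replicate 3 was the highest in both groups, the reverse of the order at Stkld1.

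The other risen genes are long noncoding RNAs (lncRNAs). 9330104G04Rik (ENSMUSG00000097842, chromosome 7, 16871347 to 16874802) lies 433.6 kb from Zc3h4. It had 47, 37.4 and 27.3 reads against 254 and 169 (log2 2.48 ± 0.30 SE, 5.57-fold). Gm11532 (ENSMUSG00000087067, chromosome 11, 97020508 to 97026142), listed by RefSeq with the synonym Sp6os, had 211, 162 and 232 reads against 1821 and 1299. It had the most reads of the 5 and the largest fold, 7.68 (log2 2.94 ± 0.21 SE). In both lncRNAs siZC3H4 replicate 2 was the higher. In all 5 risen genes both libraries labelled siZC3H4 lay above every siNT library, as in 19.5% of all genes tested. The 5 were picked for their rise, so this separation follows largely from the choice.

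**Figure D2:**
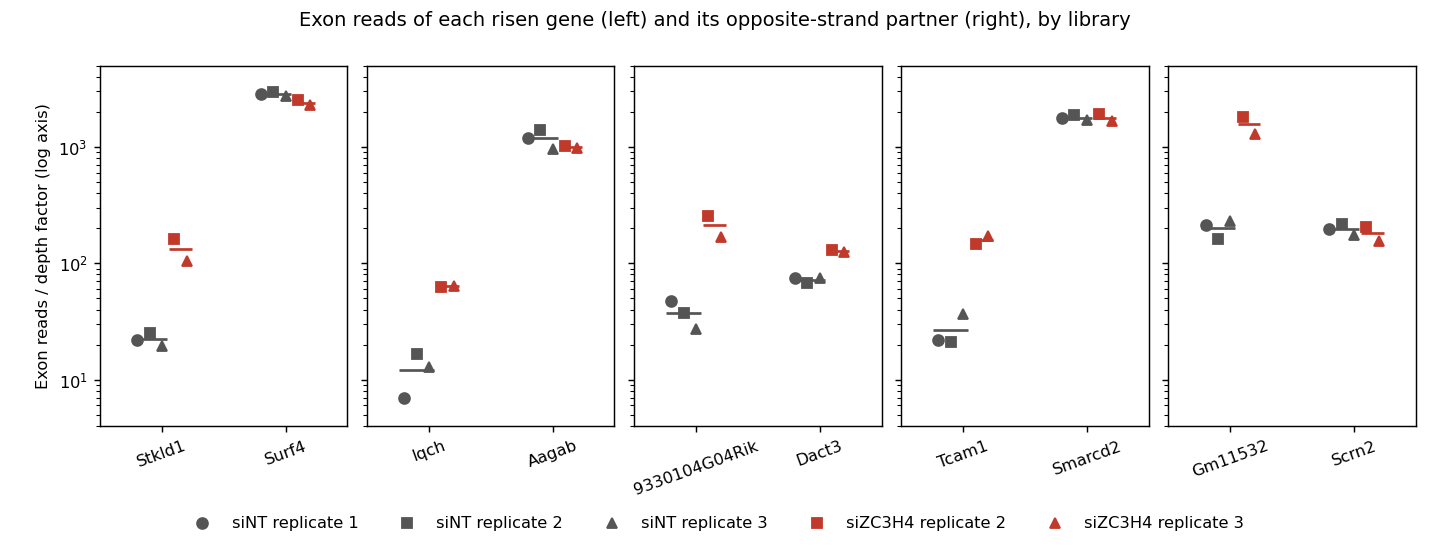
Exon reads divided by the depth factor (log axis) in each of the 5 libraries, grey for siNT and red for libraries labelled siZC3H4, with horizontal lines at the group means; each panel holds a risen gene and its partner. The red points sit above all grey points for the 5 risen genes, which were picked for their rise. Smarcd2, Scrn2 and Aagab overlap between groups, and Surf4 is lower and Dact3 higher in both red libraries.

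The values that chose these genes were those of the limma fit over 12482 genes, in which 277 (2.22%) rose. The 5 members ranked 3, 6, 8, 11 and 12 among the 277 by fold. Members also held the 5 largest folds among the 97 risen genes with an opposite-strand start within 4 kb upstream. The smallest of the 5 was log2 2.37 for Iqch, and the next gene of that kind, the lncRNA Tnfsf13os, lay just outside at 2.32. The number of risen genes over the whole table was 2 without siNT replicate 1, 165 without replicate 2 and 676 without replicate 3, and 10 and 80 without siZC3H4 replicates 2 and 3. Of the 5 members, 1 met the threshold that chose them when siNT replicate 1 was dropped, and 1 and 4 did when siZC3H4 replicate 2 or 3 was dropped. Log2 values with a library left out lay between 2.05 and 3.19 over the 5 genes.

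The partners were compared to ask whether the gene on the other side of the promoter moved as well. None of the 5 passed the limma test (0 of 5, against 2.36% of all genes past it in either direction). At an unadjusted p under 0.05 there was 1, Dact3, against 1915 of all 12482 genes tested. On the recovered reads edgeR and DESeq2 also called 0 of 5. Over all genes edgeR called 345 rises and 19 falls, and DESeq2 537 and 97. The log2 values of the 5 partners ran from -0.24 to 0.81. In 2 of the 5 the groups did not overlap, lower for Surf4 and higher for Dact3, against 32.3% of all genes tested in either direction.

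Surf4, a cargo receptor between the endoplasmic reticulum and the Golgi (ENSMUSG00000014867), had 2823, 2960 and 2747 exon reads with siNT against 2516 and 2288 in the libraries labelled siZC3H4. Both of the latter lay below every siNT library, an arrangement found in 12.8% of all genes tested. The difference was log2 -0.24 (95% confidence interval -0.50 to 0.01, limma adjusted p = 0.359). Aagab, a binding protein of the clathrin adaptor complexes (ENSMUSG00000037257), had 1188, 1397 and 962 reads against 1020 and 973, overlapping groups (log2 -0.23, interval -0.60 to 0.15, limma adjusted p = 0.602).

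Smarcd2, a subunit of the BAF chromatin remodelling complex (ENSMUSG00000078619), had 1759, 1868 and 1697 reads against 1907 and 1668. Its difference was log2 0.01 with an interval from -0.27 to 0.29 (limma adjusted p = 0.988), and the fold of Tcam1 lay far outside it. The Tcam1 gain was 42.8 reads per kb of transcript, below the Smarcd2 SD of 61.5 in the libraries labelled siZC3H4. An equal gain in reads at Smarcd2 could therefore not be told from none. Scrn2, the secernin 2 gene (ENSMUSG00000020877), had 198, 216 and 175 reads against 205 and 156 (log2 -0.13, interval -0.59 to 0.33, limma adjusted p = 0.860). Both groups overlapped for each of these genes.

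Dact3, a Dishevelled-binding regulator of Wnt signalling (ENSMUSG00000078794), stood apart from the other partners. It had 75, 67.0 and 75.1 reads with siNT against 130 and 125 in the libraries labelled siZC3H4, so both of the latter lay above every siNT library. That arrangement is found in 19.5% of all genes tested. The difference, log2 0.81 (interval 0.32 to 1.30), did not pass the test (limma adjusted p = 0.0964), and leaving out any 1 library gave 0.0670 to 0.568. It did pass in 1 of the 14 alternatives, the fit with the replicate number as a block. In that fit 1530 of the 12482 genes tested rose and 830 fell.

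The label of an active promoter held unevenly for the partners. On the scale of reads per kb of transcript, the siNT mean was 1024 for Surf4, 648 for Smarcd2 and 461 for Aagab, above 89.2%, 81.5% and 74.0% of the genes in the table. Scrn2 at 133 per kb stood at 43.0% and Dact3 at 25.6 per kb at 16.7%, so Dact3 was itself a weakly transcribed gene. The risen genes lay between 5.02% (Iqch, 4.41 per kb) and 21.2% (Gm11532, 39.0 per kb) in the siNT libraries. In the libraries labelled siZC3H4 Gm11532 reached 302 per kb, at 63.1%, and the others lay between 14.4% and 35.3%.

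Set against the partner per kb, the pairs split in the same way. In the siNT libraries Stkld1 had 0.822% to 0.980% of the Surf4 level, Iqch 0.550% to 1.24% of the Aagab level and Tcam1 0.995% to 1.93% of the Smarcd2 level. In the libraries labelled siZC3H4 these shares were 7.40% and 5.29%, 5.75% and 6.15%, and 6.79% and 9.13%. These 3 genes stayed more than 10-fold below their partners in every library. The lncRNAs passed theirs. 9330104G04Rik went from 82.0%, 73.1% and 47.6% of the Dact3 level to 256% and 177%, and Gm11532 from 30.5%, 21.5% and 38.0% of the Scrn2 level to 254% and 239%.

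**Figure D3:**
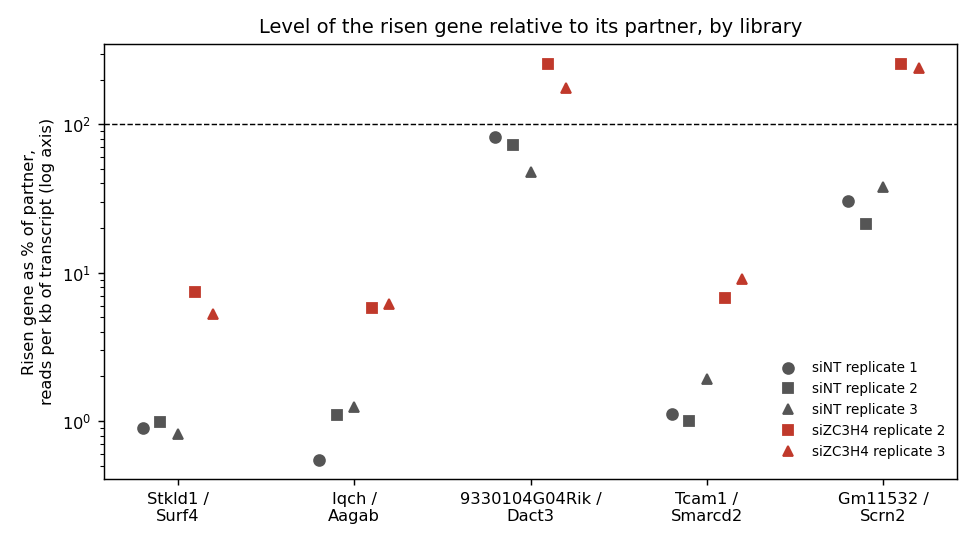
Level of each risen gene as a percentage of its partner, both in reads per kb of transcript (log axis), in each library; the dashed line marks equal levels. The siNT points of 9330104G04Rik and Gm11532 lie below the line and the siZC3H4 points above it, between 177% and 256%, while Stkld1, Iqch and Tcam1 stay at or below 9.13%.

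In absolute terms the gain was uneven as well. On the scale of reads per kb the mean of Gm11532 went up by 263, that of 9330104G04Rik by 80.7, that of Stkld1 by 46.1, that of Tcam1 by 42.8 and that of Iqch by 18.7. The partner means changed by -159 per kb (Surf4), -72.2 (Aagab), 19.5 (Dact3), 4.67 (Smarcd2) and -10.7 (Scrn2), none past the limma test. For Surf4 and Aagab the change was larger in size than the gain of the risen gene. For Dact3, Smarcd2 and Scrn2 it was smaller. The order of the risen genes' gains did not follow the partners' levels, since Gm11532 and 9330104G04Rik lie beside the partners with the lowest levels per kb.

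Among the member genes, Smarcd2 and Tcam1 had a row in the uaRNA table. The table names a region by its host gene and gives no coordinates. Of 1651 protein-coding genes with an opposite-strand start within 1 kb upstream, 10 (0.606%) had a uaRNA row, against 56.6% of those with none within 4 kb. At start distances between 3001 and 4000 bases the share was 59.3%, the class that holds Smarcd2, Tcam1 and Scrn2. The close pairs could therefore be followed in exon reads only.

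The Smarcd2 uaRNA runs on the strand of Tcam1. It had 423, 330 and 329 reads with siNT against 1763 and 1278 in the libraries labelled siZC3H4, 4.18-fold (log2 2.06 ± 0.22 SE). Both of the latter lay above every siNT library, as in 73.7% of all uaRNAs, and 62.1% of the 5124 uaRNAs tested rose (3180, or 1840 without siZC3H4 replicate 2). Against the median of all uaRNAs, log2 0.88, it stood 1.18 higher and ranked 183 of 5124. Without coordinates it could not be read whether this region and the Tcam1 exons overlap. Both rows belong to 1 strand by annotation and may count the same reads, so the uaRNA is no independent measure of the Tcam1 rise. Whether reads were counted by strand is not stated. Leaving out any 1 library gave a log2 value of 1.83 to 2.30.

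The uaRNA of Tcam1 itself runs the other way, on the strand of Smarcd2. It had 33, 20.9 and 31.6 reads against 90.5 and 79.3, 2.96-fold (log2 1.57 ± 0.33 SE), 0.69 above the median of all uaRNAs. Rescaling on the uaRNA reads alone, with median-of-ratios or TMM factors, takes that median to 0.00 or 0.02 and left the Tcam1 uaRNA at log2 0.69 and 0.71. After rescaling the Tcam1 uaRNA was no longer past the threshold (limma adjusted p = 0.0829 and 0.0762, against 6.4e-05 in the main fit). The Smarcd2 uaRNA was at 1.17 and 1.19 there and still past it (limma adjusted p = 0.00112 and 0.00107). Of the 4 rows of this pair, the 2 annotated to the Tcam1 strand and the Tcam1 uaRNA were higher in both libraries labelled siZC3H4. The Smarcd2 exons overlapped.

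**Figure D4:**
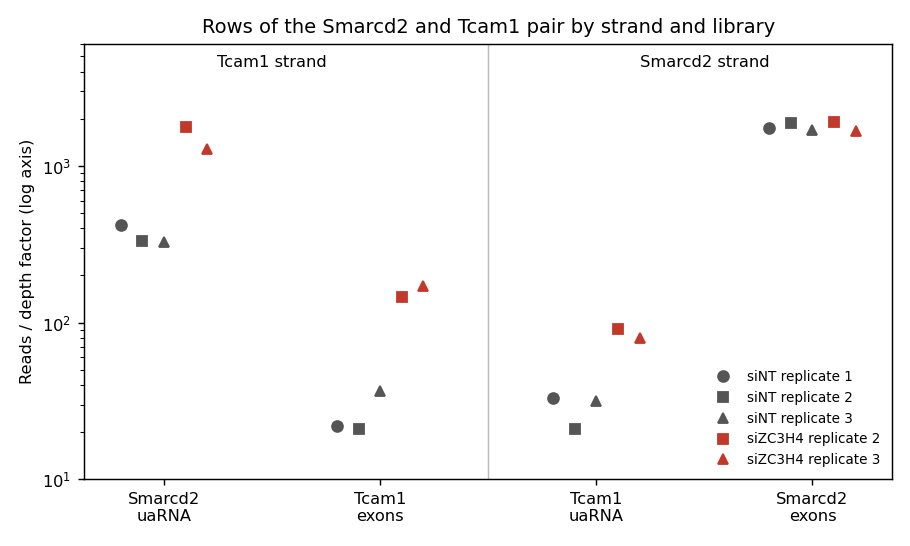
Reads divided by the depth factor (log axis) for the 4 rows of the Smarcd2 and Tcam1 pair, by library and by annotated strand. The Smarcd2 uaRNA, Tcam1 exons and Tcam1 uaRNA lie higher with siZC3H4 than in any siNT library, and the Smarcd2 exon reads overlap between the groups.

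The genes next to the pairs were read as well. Some overlap a member or lie close to it, but others are far away. The gap was 106506 bases for Ern1, 28077 for Calm3 and 22440 for 2300009A05Rik, so these genes do not measure how far a change reached. Of the nearest gene of the table on each side of each pair, 0 of 10 passed the limma test (2.36% of all genes did). At an unadjusted p under 0.05 there were 0, against 1915 of all 12482 genes tested. Both edgeR and DESeq2 called 0 of 10. Over all genes edgeR called 345 rises and 19 falls, and DESeq2 537 and 97. The log2 values of the 10 flanking genes lay between -0.48 and 0.24. The groups did not overlap for Surf2 and 2300009A05Rik, both lower, and for Mrpl10, higher, which is 3 of 10 genes against 32.3% of all genes tested. Rexo4, an exonuclease gene that ends 66 bases beyond the Stkld1 end on the opposite strand, had 2125 ± 57.4 (SD, n = 3) and 2082 ± 15.6 reads (SD, n = 2). Surf2, whose end overlaps that of Surf4 by 143 bases, had 1240 ± 21.2 and 1080 ± 93.8 (log2 -0.20 ± 0.12 SE). Psmc5, a proteasome ATPase gene 58 bases beyond the end of Smarcd2, was at log2 -0.08 ± 0.12 SE.

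Sp6, a transcription factor gene of the Sp family, overlaps Gm11532 on the opposite strand. It had 628, 507 and 479 exon reads with siNT against 618 and 447 in the libraries labelled siZC3H4 (log2 -0.02 ± 0.19 SE), so the groups overlapped. The library kit keeps strand, but the sources used here do not say whether reads were counted by strand. That limit holds for every comparison between a risen gene, its partner and a uaRNA. On the other sides, Prkd2, beyond the 9330104G04Rik end, was at log2 0.24 ± 0.24 SE and Calm3, a calmodulin gene beyond Dact3, at -0.16 ± 0.14 SE. Beside Iqch and Aagab, 2300009A05Rik was at -0.48 ± 0.33 SE and the TGF-beta signal transducer gene Smad3 at 0.06 ± 0.12 SE. Ern1, which encodes the stress sensor IRE1, and Mrpl10, a mitochondrial ribosomal protein gene, were at -0.22 ± 0.14 and 0.14 ± 0.12 SE.

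The 5 pairs were set beside the other genes of the same arrangement. The gene table held 2316 genes with an opposite-strand start within 4 kb upstream, 2251 of them tested. Of these 97 (4.31%) rose and 4 fell, with a median log2 of 0.05, against 180 of 10231 (1.76%) and a median of 0.01 among genes with no such start. These shares are a description, since the members were chosen from this set. Without the 5 members the share was 4.10%. The 97 comprised 56 protein-coding genes and 41 lncRNAs, with a median start distance of 266 bases. Of the 97, 81 had a lower siNT level per kb than their nearest partner, against 1100 of all 2251 tested genes of the arrangement.

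Without the member partners, 89 nearest partners of the other risen genes were tested. Of these 4 (4.49%) rose and 1 fell, with a median log2 of -0.00419. Over all genes tested 2.22% rose and 0.144% fell. The 4 were Syngr4 with Tmem143 and Gm12758 with Gm12762, each the partner of the other and so counted from both sides. After the members the largest rises were those of Tnfsf13os (log2 2.32 ± 0.31 SE) beside Senp3, Gm16343 (2.31 ± 0.30) beside Ifrd2, Syngr4 (2.29 ± 0.26) beside Tmem143, Gm12758 (2.11 ± 0.28) beside Gm12762, and Frmd8os (2.09 ± 0.22) beside Neat1. Senp3, Ifrd2 and Neat1 were at log2 -0.09, -0.07 and 0.05 and did not pass. Tmem143 and Gm12762 rose, by log2 0.94 and 0.95, which is more than any member partner.

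**Figure D5:**
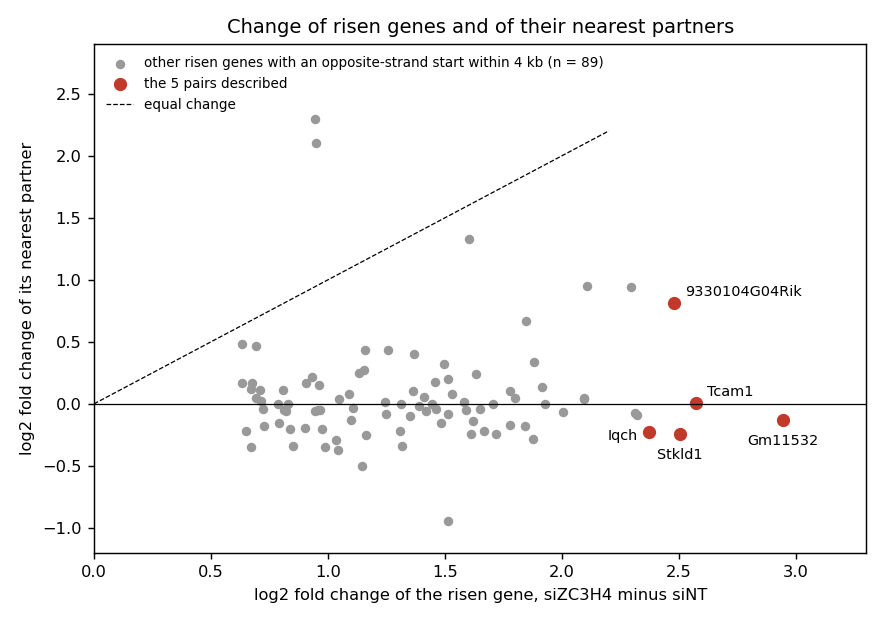
Log2 fold change of each risen gene that has an opposite-strand start within 4 kb upstream (x axis) against that of its nearest partner (y axis), with the 5 pairs in red and 89 others in grey; the dashed line marks equal change. The members hold the 5 largest values on the x axis because they were chosen there, and their partners spread from -0.24 to 0.81, with 9330104G04Rik the only red point well above 0.

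Genes whose profile over the 5 libraries was nearest to the median profile of the 5 risen genes were C920006O11Rik, Gm16343 and Gm26868. The measure was the root mean square difference of log2 values centred on the siNT mean, 0.18, 0.24 and 0.26. For the members, whose own values make up the median, it was 0.18 to 0.39. C920006O11Rik, a transcribed pseudogene whose reads may be shared with a parent gene, went from 132 ± 7.37 (SD, n = 3) to 674 ± 133 reads (SD, n = 2). All 3 had a higher value in siZC3H4 replicate 2 than in replicate 3, as Stkld1, 9330104G04Rik and Gm11532 did. Tcam1 and Iqch had the other order. The median profile used for the choice has replicate 2 above replicate 3, so the shared order follows from the choice and is no separate result.

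Of 18 genes for factors that end transcription early or degrade its products, 17 were tested. Zc3h4 was the 1 of them past the limma threshold in either direction. The median of the 17 was log2 0.01, equal at this precision to the 0.01 of all genes tested. Wdr82, whose product binds ZC3H4, had 8835 ± 690 (SD, n = 3) and 9376 ± 846 reads (SD, n = 2; log2 0.09 ± 0.12 SE).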

How the data were processed

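Nascent RNA was measured by TT-seq in 5 libraries. The submitters' processing notes name STAR, DESeq2, featureCounts and cutadapt 1.14, and the builds dm6 and mm10, with no order, settings or strand option. The authors deposited depth-normalized signal, a read count per gene's exons or per uaRNA region divided by 1 factor per library (1, 1.15, 1.172, 1.767 and 1.046). Multiplying back gave whole reads, within 0.01, for 100% of values. No source used here says how they were set.

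Each table was fitted as a whole with limma 3.58.1 (R 4.3.3) on log2(value + 1), siZC3H4 minus siNT, no block, for features with a mean of 10 or more. Benjamini-Hochberg adjusted p-values under 0.05 count as calls, and "rose" and "fell" mean past it. This scale understates changes of low genes. The fits were run on simulated data with an equal spread setting for every gene and no deviation shared by genes within a library. The libraries here need not behave so, and that run does not measure how reliable their calls are. Alternatives were edgeR 4.0.16 and DESeq2 1.42.0 on the recovered reads, 2 rescalings, other pseudocounts and filters, the replicate number as a block, and each library left out. Named are the members, their flanking genes, the 5 next largest rises of the same arrangement, the 3 nearest profiles and a list of termination factors. Members and lists were chosen with earlier results of these data known.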

Additional observations from a re-analysis of the deposited data

How the results depend on the processing

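Counts of the 5 risen genes past the threshold support nothing, since it chose them. They were 2 with no filter on low values, 4 with a mean of 50 or more (Iqch was no longer tested), 1 to 5 with a library left out and 5 otherwise. No partner passed under any alternative except the block, where 1 did, Dact3 (log2 0.84, limma adjusted p = 0.00125). The Smarcd2 exon difference, near 0, turned to log2 -0.0286 with the median of ratios and -0.0257 with TMM, and ranged from -0.088 to 0.105 with a library left out, below 0 when siZC3H4 replicate 2 or siNT replicate 3 (-0.0234) was dropped. That of Scrn2 ranged from -0.325 to 0.0674, above 0 when siZC3H4 replicate 3 was dropped. Over all genes, where 277 rose and 18 fell, DESeq2 gave 537 and 97, no filter 38 and 0, and median of ratios scaling 29 falls. The range with a library left out was 2 to 676 rises and 0 to 138 falls. Over all uaRNAs, where 3180 rose and 58 fell, the median of ratios gave 527 and 600, TMM 548 and 573, no filter 34 falls, and leaving out a library 1840 to 3097 rises and 16 to 88 falls. Replicate numbers 2 and 3 occur in both groups, and deviations of same-numbered libraries correlated at 0.53 and 0.62 over genes. With 2 libraries labelled siZC3H4 their deviations mirror each other, so the 2 correlations are not separate evidence. The labels do not say that a number marks a shared batch. With the replicate number as a block 1530 genes rose and 830 fell, a fit in which siNT replicate 1 drops out. Few reads limit Iqch, with 41 in the 3 siNT libraries. The cause of these differences was not tested.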

Other observations

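Low level and arrangement overlap among the genes that rose. Among genes with a siNT level under 40 reads per kb, a limit set after the members' levels were seen and under which all 5 risen members lie, 22 of the 269 others tested with an opposite-strand start within 4 kb upstream rose (8.18%, median log2 0.47). Of the 1956 tested with no such start 68 rose (3.48%, median log2 0.19). Among genes of the arrangement whose siNT level was lower than the partner's, 76 of 1095 rose without the members (6.94%), and among those at or above it 16 of 1151 (1.39%). These shares were not tested, and low genes with high reads in the libraries labelled siZC3H4 pass the filter more easily.

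In lncRNAs the share that rose was, without the members, 39 of 264 with such a start and 45 of 505 with none (14.8% and 8.91%), and in protein-coding genes 53 of 1964 and 132 of 9628 (2.70% and 1.37%). In 2 pairs both genes rose, Syngr4 with Tmem143 and Gm12758 with Gm12762. In each the gene with the lower siNT level per kb had the larger fold.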
